A study of Homo sapiens with 6 samples.

Results

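The glutathione S-transferase genes GSTM2, GSTM3, GSTM4, GSTP1, GSTO1, GSTA4, GSTK1, MGST1, MGST2 and MGST3 were examined in human cardiomyocytes exposed to alcohol. They were matched by symbol in the deposited gene table, and all 10 were found among its 21134 genes and passed the filter on low counts. The group was chosen by the level of GSTM2, which had been noted for its rise from control to alcohol in these same libraries. The values of the members in alcohol against control are therefore a description, with no p, and no p is given for GSTM2 in any comparison.

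The cells were hiPSC-CMs, the study's name for human induced pluripotent stem cell-derived cardiomyocytes, made from the line H9, which is an embryonic stem cell line. RNA was sequenced from 2 libraries of untreated cells (control), 2 of cells given 100 mM alcohol for 24 h (alcohol), and 2 of cells given 100 mM alcohol together with 1 μM losartan, a blocker of the angiotensin II receptor AT1R, for 24 h (co-treated). No library of losartan alone was analysed here, and all libraries came from 1 line. Nothing says that the replicates were separate cultures or differentiations, so p-values measure only the spread between these libraries, which may be technical.

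Glutathione S-transferases join glutathione to electrophilic compounds, among them products of lipid peroxidation, which are then exported from the cell. Cytosolic forms are grouped into classes such as alpha, mu, pi, omega, theta and zeta, the kappa form lies in mitochondria and peroxisomes, and a separate family (MAPEG) sits in membranes and also reduces lipid peroxides. Several of these genes are known targets of NRF2, the transcription factor of the antioxidant response, and the mu enzyme GSTM2 is known in heart muscle as an inhibitor of the cardiac ryanodine receptor, the calcium release channel.

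The mu class genes lie side by side on chromosome 1, in GRCh38 with GENCODE 29 at chr1:109656081-109775428, a span of 119 kb. GSTM4 (chr1:109656081-109674836) overlaps GSTM2 (chr1:109668022-109709551), which holds the whole of GSTM1 (chr1:109687814-109709039), all on the plus strand. GSTM3 (chr1:109733932-109741038) lies on the minus strand inside the span of GSTM5. The other members are scattered, with GSTP1 at chr11:67583595-67586656, GSTO1 at chr10:104235356-104267459, GSTA4 at chr6:52977948-52995378 on the minus strand, GSTK1 at chr7:143244093-143270854, MGST1 at chr12:16347142-16609259, MGST2 at chr4:139665768-139740745 and MGST3 at chr1:165630861-165661796. Transcripts of several members overlap genes of the opposite strand, and whether reads were counted by strand is not given in the sources used here.

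The sequences of the 250 bases before the start site (RefSeq, GRCh38.p14, plus strand) are shown for GSTM2, the member noted for alcohol, and for its neighbour GSTM1, with which it shares the most transcript sequence. Capitals mark the 3 runs of at least 10 bases that both windows hold. The third window is that of GSTP1, the most abundant member, with a match to the core of the antioxidant response element in capitals.
GSTM2, chr1:109667807-109668056: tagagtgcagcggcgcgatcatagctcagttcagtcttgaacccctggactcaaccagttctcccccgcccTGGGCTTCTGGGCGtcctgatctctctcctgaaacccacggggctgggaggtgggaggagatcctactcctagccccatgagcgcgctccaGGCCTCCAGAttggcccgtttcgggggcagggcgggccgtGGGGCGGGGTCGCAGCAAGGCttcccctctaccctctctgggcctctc
GSTM1, chr1:109687567-109687816: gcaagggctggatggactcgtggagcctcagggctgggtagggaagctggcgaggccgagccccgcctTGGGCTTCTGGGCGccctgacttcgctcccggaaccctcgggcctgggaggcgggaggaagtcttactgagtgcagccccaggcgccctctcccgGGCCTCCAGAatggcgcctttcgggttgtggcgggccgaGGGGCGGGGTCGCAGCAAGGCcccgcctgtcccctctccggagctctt
GSTP1, chr11:67583562-67583811: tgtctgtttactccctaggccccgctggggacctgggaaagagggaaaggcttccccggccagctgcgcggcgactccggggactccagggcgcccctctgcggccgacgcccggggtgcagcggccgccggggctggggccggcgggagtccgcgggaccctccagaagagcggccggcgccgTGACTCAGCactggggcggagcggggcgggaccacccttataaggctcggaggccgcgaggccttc

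The windows of GSTM2 and GSTM1 were identical at 69.8% of aligned positions, against 67.3% for GSTM2 and GSTM5, 52.7% for GSTM2 and GSTM4 and 45.2% for GSTM2 and GSTM3. The core of the antioxidant response element, TGACNNNGC on either strand, was searched in windows of 250 bases before to 50 bases after the start, and 13.3% of all 35116 windows held it. Of the 9 members with a window, 4 had a match: GSTP1 at -66, GSTA4 at -9, GSTO1 at -226 and -161, and MGST1 at 30 bases after the start in 1 of its 3 windows. The windows of GSTM2, GSTM3, GSTM4, GSTK1 and MGST3 held no match, while those of GSTM1 and GSTM5 held 1 each, at -165 and -159. The AP-1 motif TGACTCA, present in 4.95% of all windows, was found among the members in GSTP1 alone, where it is the same stretch as the other match. A match is a description of these letters only, and no binding was measured.

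Library totals ran from 4898287 to 5051448 expected counts. All 10 cardiomyocyte markers were present, with a summed level of 19720 to 29075 FPKM (a level scaled to gene length and library size). Summed fibroblast markers (8 genes) were at 332 to 401 FPKM and smooth muscle markers (5 genes) at 730 to 1940 FPKM. Endothelial markers (5 genes) summed to at most 10.5 FPKM with PECAM1, CDH5 and VWF under 1 FPKM, blood markers (2 of 4 listed) to at most 4.12 FPKM, pluripotency markers (5 genes, TDGF1 under 1 FPKM) to at most 19.5 FPKM, and endoderm and liver markers (7 genes, SOX17 under 1 FPKM) to 42.7 to 57.3 FPKM. In bulk RNA, fewer cells of a type and less RNA per cell cannot be told apart.

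In untreated hiPSC-CMs the members spanned nearly an order of magnitude. GSTP1 was the most abundant at 196 ± 13.4 FPKM (SD, n = 2 here and below), followed by MGST3 at 143 ± 0.318, GSTK1 at 76.7 ± 8.24, GSTO1 at 70.8 ± 1.195, MGST1 at 67.5 ± 9.07, GSTM4 at 52.1 ± 1.75, GSTM2 at 46.5 ± 2.80, MGST2 at 43.0 ± 2.26, GSTM3 at 21.9 ± 2.46 and GSTA4 at 21.0 ± 2.16 FPKM. The control libraries of GSTK1 and GSTO1, of GSTO1 and MGST1, of GSTM2 and MGST2, and of GSTM3 and GSTA4 overlapped, so these neighbours in the order did not differ beyond their spread. Averaged over all libraries, 1.50% of the genes in the table had a higher FPKM than GSTP1 and 15.1% a higher FPKM than GSTM3, the lowest member.

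GSTM2 moved furthest in that order. It was 7th of 10 in control and 4th of 10 in both alcohol and co-treated cells, where its libraries lay above those of GSTO1 and, in alcohol, overlapped those of GSTK1. GSTP1, MGST3 and GSTK1 held the top 3 places in every group. The summed FPKM of the members was 734 and 742 in control, 738 and 724 in alcohol, and 716 and 740 in co-treated cells, so the 3 groups overlapped. Within that sum, the share of GSTM2 was 6.60% and 5.99% in control, 10.7% and 13.8% in alcohol, and 10.5% and 10.2% in co-treated cells, and that of GSTP1 was 25.4% and 27.6%, 21.9% and 20.9%, and 20.8% and 17.7%. GSTM2 thus took a larger share, and GSTP1 a smaller share, of a nearly equal sum of these 10 genes in every alcohol-exposed library. The share of GSTM2 restates the rise for which it was chosen, and may depend on how reads were divided between GSTM2 and GSTM1. Other transferases and related enzymes were left out of the sum. Of those tested, GSTM1, GSTT1, GSTZ1 and PTGES lay above control in FPKM in all alcohol-exposed libraries, and GSTCD did not.

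**Figure D1:**
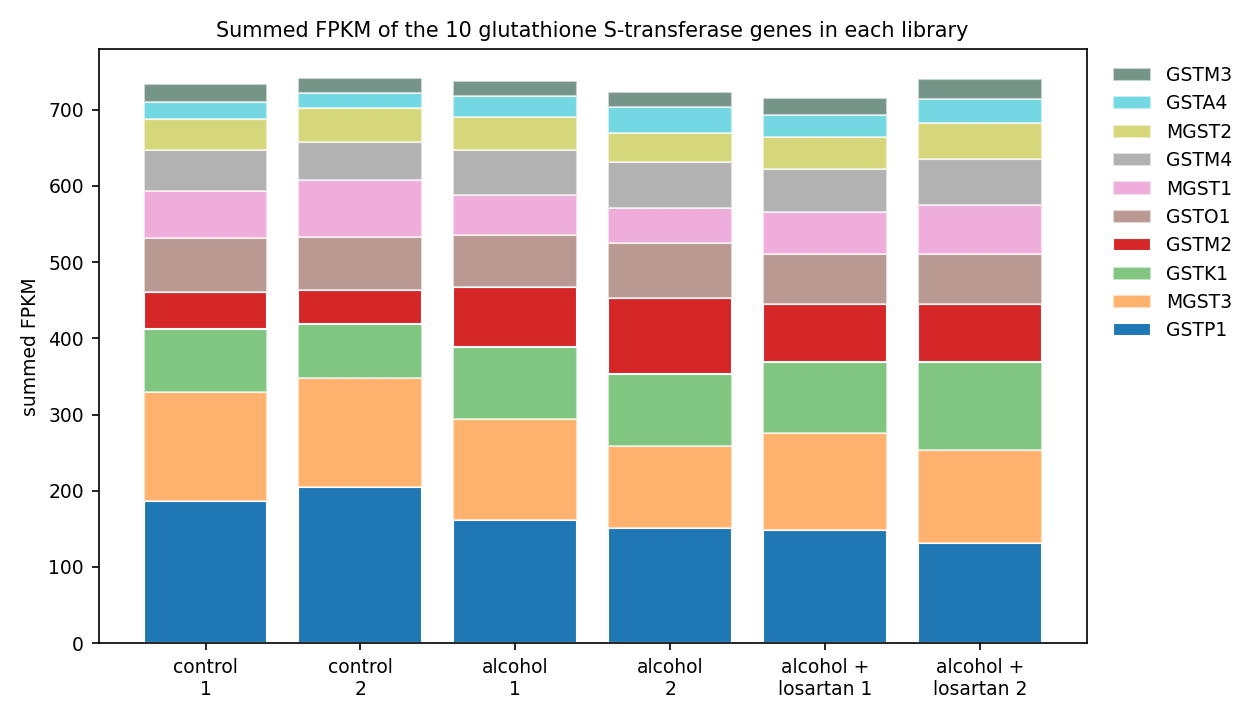
Stacked bars of the FPKM of the 10 glutathione S-transferase genes in each of the 6 libraries, ordered by mean level. The bars sum to between 716 and 742 FPKM, while the segment of GSTM2 widens from 44.5 and 48.4 FPKM in control to 75.2 FPKM or more in every alcohol-exposed library.

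The mu class held the member with the largest difference. GSTM2 was at 48.4 and 44.5 FPKM in control, 79.0 and 100.1 FPKM in alcohol, and 75.2 and 75.4 FPKM in co-treated cells. Every alcohol-exposed library lay above both control libraries, and both co-treated libraries lay below both alcohol libraries. How many of all genes had every alcohol-exposed library on the same side of both control libraries was not counted. That pattern is therefore only a description, here and below. The means were 46.5 ± 2.80, 89.5 ± 14.9 and 75.3 ± 0.170 FPKM, and the log2 fold change on counts was 0.89 for alcohol against control, 0.65 for co-treated against control and -0.25 for co-treated against alcohol. The alcohol libraries differed from each other by more than those of the other groups, and the last value was -0.38 with alcohol replicate 1 left out and -0.11 with alcohol replicate 2 left out. Alcohol replicate 2, with the highest GSTM2, also had the lowest summed cardiomyocyte markers (19720 FPKM) and smooth muscle markers (730 FPKM). The largest part of the cardiomyocyte sum was MYL7, at 9321 FPKM in that library. MYL7, MYL2, NPPA, ACTN2 and TTN were at their lowest there, but MYH6 (737 FPKM) and NKX2-5 (151 FPKM) were at their highest. TNNT2, MYH7 and RYR2 were at neither end, so the cardiomyocyte markers did not move together. Control replicate 2, with the lowest GSTM2 (44.5 FPKM), was close to alcohol replicate 2 in MYL2 (863 and 821 FPKM) and MYH6 (717 and 737 FPKM). The remaining libraries were at 2139 to 2862 FPKM for MYL2 and 305 to 381 FPKM for MYH6. Over the groups, smooth muscle markers summed to 1940 and 1700 FPKM in control, 1463 and 730 FPKM in alcohol and 1005 and 1044 FPKM in co-treated cells, below control in all 4 alcohol-exposed libraries. Cardiomyocyte markers summed to 28131 and 29075 FPKM in control, 26416 and 19720 FPKM in alcohol and 22533 and 25060 FPKM in co-treated cells, and endoderm and liver markers to 45.0 and 42.7, 55.0 and 57.3, and 55.6 and 54.1 FPKM. Their part in the result was not tested.

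GSTM4, another mu class transferase, was at 53.3 and 50.9 FPKM in control, 58.4 and 60.5 in alcohol, and 56.7 and 60.8 in co-treated cells. Both groups given alcohol lay above control, by a log2 fold change of 0.15 and 0.12, far less than for GSTM2. GSTM3, the mu form known from brain and testis, was at 23.6 and 20.1 FPKM in control, 20.3 and 20.4 in alcohol, and 22.9 and 26.8 in co-treated cells. Its control libraries overlapped both other groups. The log2 fold change of alcohol against control was -0.14, with 0.0042 when control replicate 1 and -0.26 when control replicate 2 was left out.

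Reads of the mu genes can be divided among several of them. In transcripts of GENCODE 29 that carry the deposited RefSeq accessions, 26.2% of the 50-base stretches of GSTM2 also occurred in another gene, nearly all of them in GSTM1 (512 of 515), against 55.7% for GSTM1, 13.3% for GSTM4 and 0% for GSTM3 and every member outside the mu class. At 100 bases the shares were 20.6% for GSTM2, 34.9% for GSTM1 and 3.01% for GSTM4, and the read length is not given in the sources used here. The expected counts were whole numbers in all 6 libraries for GSTP1, GSTO1, GSTA4, GSTK1, MGST1 and MGST2, and in none of them for GSTM1, GSTM2, GSTM3, GSTM4 and MGST3. The transcripts of GSTM3 and MGST3 compared here were shorter than the deposited lengths, so the whole of these genes was not covered. Values of single mu class genes are therefore uncertain.

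GSTM1 was at 20.8 and 26.3 FPKM in control, 35.6 and 37.8 in alcohol, and 32.9 and 36.1 in co-treated cells, also with every alcohol-exposed library above control. The co-treated to control log2 fold change of GSTM1 was 0.51 (SE 0.16), which did not pass (edgeR adjusted p = 0.198). With 55.7% of its 50-base stretches shared, mostly with GSTM2, this value may not be independent of the choice of GSTM2. With GSTM1 to GSTM5 summed to 1 count, which needs no division of reads among them, the sums were 1310 and 1226 counts in control, 1555 and 1668 in alcohol, and 1511 and 1685 in co-treated cells. Again all alcohol-exposed libraries lay above control. Counts weigh long genes more, and GSTM3 alone held 498 and 423 of the control counts. The summed FPKM, which is scaled to length but uses the divided reads, was 146 and 142 in control. It was 193 and 219 in alcohol and 188 and 199 in co-treated cells. The log2 fold change of the summed counts was 0.32 for alcohol against control, 0.31 for co-treated against control, and -0.01 for co-treated against alcohol. This sum holds GSTM2 and is not independent of the choice of GSTM2, so it is a description with no p.

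GSTP1, the pi class enzyme and an inhibitor of the stress kinase JNK, was the most abundant member in every library. It was at 186 and 205 FPKM in control, 161 and 151 in alcohol, and 149 and 131 in co-treated cells. The 3 groups did not overlap, with control highest and co-treated lowest. The log2 fold change of alcohol against control was -0.36. GSTO1, the omega class enzyme with thioltransferase and dehydroascorbate reductase activity, was at 71.6 and 69.9 FPKM in control, 68.2 and 72.0 in alcohol, and 65.5 and 66.0 in co-treated cells. Only the co-treated libraries lay apart in FPKM, below all others, and the alcohol to control log2 fold change was -0.06, nearly 0 (-0.00068) without control replicate 1.

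GSTA4, the alpha class enzyme that conjugates the lipid peroxidation product 4-hydroxynonenal, was at 22.5 and 19.5 FPKM in control, 26.7 and 33.4 in alcohol, and 28.1 and 30.8 in co-treated cells. All 4 alcohol-exposed libraries lay above control, and its alcohol to control log2 fold change of 0.47 was the next highest after that of GSTM2 among the members. GSTK1, the mitochondrial and peroxisomal kappa enzyme, was at 82.5 and 70.8 FPKM in control, 94.4 and 94.5 in alcohol, and 93.7 and 115.8 in co-treated cells. Again control lay lowest with no overlap, with a log2 fold change of 0.27 for alcohol against control, which was 0.41 without control replicate 1 and 0.16 without control replicate 2.

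Of the membrane-bound enzymes, MGST1, found in the endoplasmic reticulum and the outer mitochondrial membrane, was at 61.1 and 73.9 FPKM in control, 52.6 and 45.5 in alcohol, and 55.1 and 63.7 in co-treated cells. Alcohol lay below both other groups, while co-treated overlapped control. Its alcohol to control log2 fold change of -0.49 was the lowest of the members. MGST3, an abundant transferase and peroxidase of the endoplasmic reticulum, was at 143.3 and 142.9 FPKM in control, 133.1 and 107.5 in alcohol, and 126.9 and 122.5 in co-treated cells. Control lay above all other libraries, by a log2 fold change of -0.28 for alcohol, which was -0.48 when alcohol replicate 1 and -0.10 when alcohol replicate 2 was left out. MGST2, which can also make leukotriene C4, was at 41.4 and 44.6 FPKM in control, 43.8 and 38.4 in alcohol, and 42.9 and 47.6 in co-treated cells. The 3 groups overlapped, its deposited transcript length varied by 4.92% between libraries, and the log2 fold change of alcohol against control was -0.08, with -0.18 when alcohol replicate 1 and 0.025 when alcohol replicate 2 was left out.

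**Figure D2:**
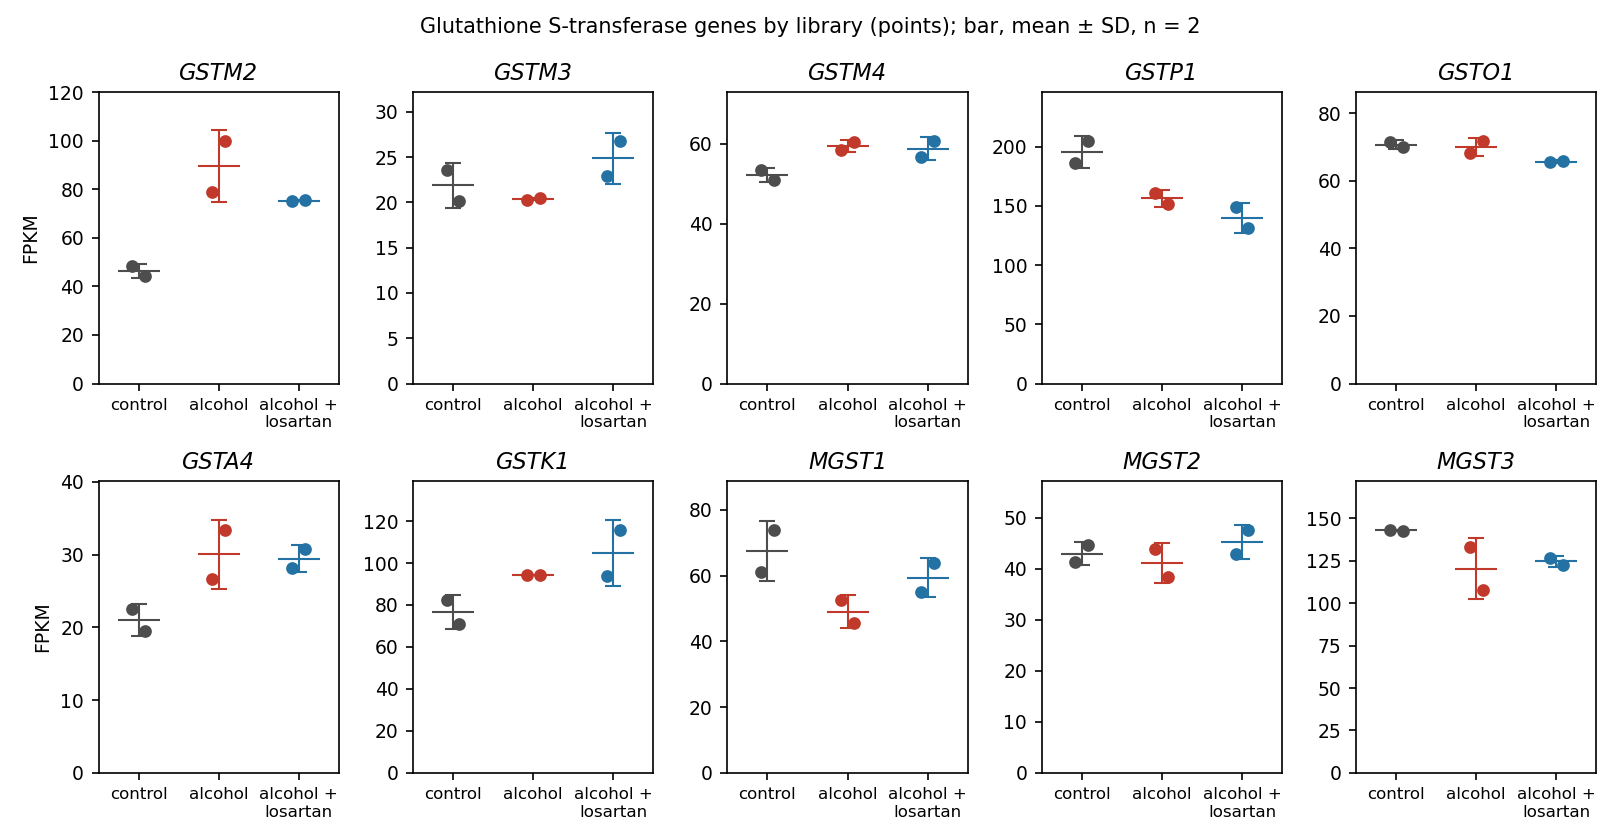
FPKM of each member by library (points) with the mean and SD of each group (n = 2), each panel on its own axis from 0. GSTM2, GSTA4, GSTK1 and GSTM4 lie higher in both alcohol-exposed groups than in control, GSTP1 and MGST3 lie lower, and MGST2 overlaps between all groups.

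In alcohol against control, 0.0670% of all 14926 genes tested (10 genes) passed an adjusted p of 0.05 by edgeR, among them 1 of the 10 members, GSTM2. GSTM2 was chosen on this same contrast, so that count is no evidence for it and nothing is read from it. On log2 CPM (counts scaled to library size), both alcohol libraries lay above both control libraries for GSTM2, GSTM4, GSTA4 and GSTK1 and below them for GSTP1, GSTO1, MGST1 and MGST3, as they lay above for 22.0% and below for 21.8% of all genes. The median log2 fold change of the members was -0.07, beside -0.0033 for all genes tested.

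In co-treated cells against control, none of the 9 members tested passed by edgeR. The background was 0.362% of all genes (54 genes). The largest difference of the 9 was that of GSTP1, with a log2 fold change of -0.53 (SE 0.12, 95% interval -0.79 to -0.27) and an adjusted p of 0.0787. DESeq2 put GSTP1 past the threshold (adjusted p = 0.0435), and over the 15 alternatives its adjusted p ran from 0.0435 to 0.421 and its log2 fold change from -0.61 to -0.46. GSTA4 followed in size at 0.44 (0.08 to 0.80, adjusted p = 0.283) and then GSTK1 at 0.40 (0.10 to 0.70, adjusted p = 0.243). These 3 were the members with an unadjusted p under 0.05, as 12.6% of all genes had. DESeq2 called 1 of the 9 members tested and 0.797% of all genes (119 genes).

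The other 6 members were nearer to 0 in that comparison. The log2 fold change was -0.25 for MGST3 (-0.53 to 0.04, adjusted p = 0.478), -0.23 for MGST1 (-0.56 to 0.11, adjusted p = 0.597) and -0.15 for GSTO1 (-0.42 to 0.11, adjusted p = 0.672). It was 0.14 for GSTM3 (-0.15 to 0.43, adjusted p = 0.735), 0.12 for GSTM4 (-0.14 to 0.38, adjusted p = 0.745) and 0.02 for MGST2 (-0.33 to 0.36, adjusted p = 0.974). On log2 CPM, 4 members lay higher and 3 lower in both co-treated libraries than in both control libraries, where 21.6% of all genes lay higher and 21.7% lower. The median over the 10 members was 0.07, beside -0.0017 for all genes.

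In co-treated cells against alcohol, none of the 9 members passed by edgeR or by DESeq2 (0.0134% and 0.0335% of all genes did, 2 and 5 genes) or had an unadjusted p under 0.05 (5.55% of all genes did). The largest were GSTM3 at a log2 fold change of 0.28 (-0.01 to 0.58, adjusted p = 0.899), MGST1 at 0.27 (-0.07 to 0.61, adjusted p = 0.915) and GSTP1 at -0.17 (-0.43 to 0.09, adjusted p = 0.923). The others were GSTK1 at 0.14, GSTO1 at -0.10, MGST2 at 0.10, MGST3 at 0.04, GSTM4 at -0.03 and GSTA4 at -0.03, with adjusted p from 0.952 to 0.990. The intervals left room for a difference of up to 0.61 in log2 for MGST1, so equal levels were not shown. Both co-treated libraries lay above both alcohol libraries on log2 CPM for GSTM3 and MGST1 and below them for GSTM2, GSTP1 and GSTO1, as for 17.4% and 16.2% of all genes. The median over the members was 0.0054, beside 0.0023 for all genes. The 3 comparisons share libraries in pairs, so their values are not independent of each other, and an exact permutation test of 2 against 2 libraries cannot give a p under 0.333.

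**Figure D3:**
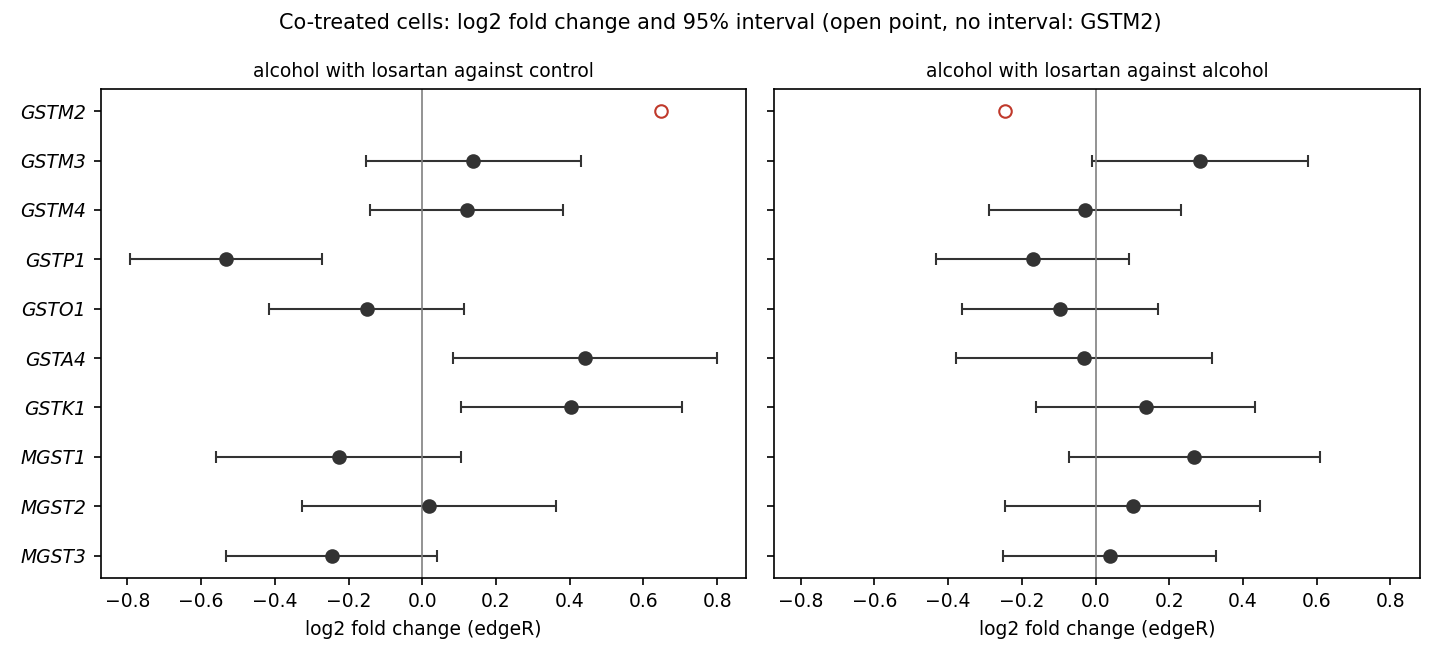
Log2 fold change by edgeR with its 95% interval for each member in co-treated cells against control (left) and against alcohol (right), with GSTM2 as an open point with no interval. Against control the intervals of GSTP1, GSTA4 and GSTK1 lie off 0 before adjustment, and against alcohol all 9 intervals include 0.

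Of the other transferases and related enzymes, 14 of 16 were in the table and 5 passed the count filter. The theta enzyme GSTT1 was at 24.6 and 19.8 FPKM in control, 32.4 and 28.5 in alcohol, and 30.1 and 28.4 in co-treated cells, above control in all 4 libraries, with a co-treated to control log2 fold change of 0.32 (adjusted p = 0.480). The deposited transcript length of GSTT1 varied by 7.83% between libraries. GSTZ1, the zeta enzyme of tyrosine breakdown, was at 20.4 and 25.6, 27.6 and 26.8, and 26.7 and 28.1 FPKM, with a co-treated to control value of 0.21 (adjusted p = 0.651). GSTCD was at 4.74 and 3.72, 3.27 and 3.54, and 5.12 and 4.82 FPKM, and PTGES, which makes prostaglandin E, at 1.29 and 0.99, 2.06 and 1.67, and 2.24 and 1.89 FPKM. None of the 5 passed in any comparison by edgeR or DESeq2, and their median log2 fold change was 0.44 in alcohol and 0.32 in co-treated cells against control. An unadjusted p under 0.05 was found for 2, 1 and 1 of them in alcohol against control, co-treated against control and co-treated against alcohol. Over all genes 11.0%, 12.6% and 5.55% had such a p. Of all genes, edgeR called 0.0670%, 0.362% and 0.0134%, and DESeq2 0.335%, 0.797% and 0.0335%. The liver-type alpha genes GSTA1 and GSTA2, and GSTM5, GSTO2, GSTT2, GSTT2B, HPGDS, LTC4S and ALOX5AP had at most 9 counts in any library.

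The glutathione that these enzymes consume is made by GCLC and GCLM, the subunits of the rate-limiting ligase, and by GSS. GCLC was at 8.03 and 7.12 FPKM in control, 8.54 and 9.07 in alcohol, and 8.71 and 10.3 in co-treated cells, and GCLM at 3.62 and 3.31, 2.30 and 3.16, and 2.68 and 2.57 FPKM. All 4 alcohol-exposed libraries thus lay above control for GCLC and below control for GCLM, a pattern whose share over all genes was not counted. Neither gene passed in co-treated cells against control (log2 fold change 0.28, adjusted p = 0.516, and -0.46, adjusted p = 0.415). GSS differed by 0.21 (adjusted p = 0.652) and the cystine transporter SLC7A11, at under 1 FPKM in every library, by -0.38 (adjusted p = 0.720). Its partner subunit SLC3A2 differed by 0.30 (adjusted p = 0.338). Of the 11 synthesis genes tested, 0 passed in any comparison by edgeR. Over all genes 0.0670%, 0.362% and 0.0134% passed in alcohol against control, co-treated against control and co-treated against alcohol, so no call says little. An unadjusted p under 0.05 was found for 1, 2 and 1 of the 11, beside 11.0%, 12.6% and 5.55% of all genes. The median was -0.09 in alcohol and -0.33 in co-treated cells against control. The lowest adjusted p was that of CBS, which makes cystathionine on the way to cysteine. CBS was at 32.7 and 37.6 FPKM in control, 28.9 and 26.9 in alcohol, and 24.2 and 22.3 in co-treated cells, and differed by -0.64 in co-treated cells against control (adjusted p = 0.0601). DESeq2 called CBS there, and 0.797% of all genes.

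No gene that reduces or uses glutathione was called. Of 18 tested, 0 passed in any comparison by edgeR or DESeq2 and 0 had an unadjusted p under 0.05. The medians were -0.00049 and -0.03 in alcohol and co-treated cells against control. Over all genes, edgeR called 0.0670%, 0.362% and 0.0134% in alcohol against control, co-treated against control and co-treated against alcohol. DESeq2 called 0.335%, 0.797% and 0.0335%, and 11.0%, 12.6% and 5.55% had an unadjusted p under 0.05. With so few genes called, no call says little about this list. GPX4, the peroxidase of membrane lipids, was at 100.7 and 120.0 FPKM in control, 111.9 and 121.5 in alcohol, and 109.0 and 86.4 in co-treated cells, and GPX1 lay between 87.6 and 96.1 FPKM in all libraries. In co-treated cells against control the log2 fold change was -0.21 for GPX4 (adjusted p = 0.565), -0.09 for GPX1 (adjusted p = 0.807), 0.09 for the reductase GSR (adjusted p = 0.837) and -0.07 for GLRX (adjusted p = 0.935).

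The genes that export or trim the conjugates also gave no call by edgeR (0 of 9 tested in each comparison, where 0.0670%, 0.362% and 0.0134% of all genes were called). An unadjusted p under 0.05 was found for 2, 3 and 0 of the 9, beside 11.0%, 12.6% and 5.55% of all genes. The list genes with such a p were ACY1 and ABCC5 in alcohol and ACY1, ABCC5 and GGT7 in co-treated cells against control. The conjugate exporter ABCC1 was at 4.74 to 5.46 FPKM in all libraries, and in co-treated cells against control differed by -0.18 (adjusted p = 0.671). ABCC5, another exporter of the same family, was at 30.3 and 29.6 FPKM in control, 37.6 and 47.2 in alcohol, and 40.5 and 47.5 in co-treated cells, above control in all 4 alcohol-exposed libraries. The deposited transcript length of ABCC5, to which FPKM is scaled, varied by 12.4% between libraries. On counts, the log2 fold change of ABCC5 was 0.38 in alcohol (edgeR adjusted p = 0.253) and 0.41 in co-treated cells against control (adjusted p = 0.167). The glutamyl transferase relatives GGT7 and GGT5 differed by -0.42 (adjusted p = 0.289) and 0.14 (adjusted p = 0.945), and the dipeptidase CNDP2 by -0.32 (adjusted p = 0.425). ACY1, an aminoacylase that removes acetyl groups from acetylated amino acids, was at 9.40 and 5.75 FPKM in control, 2.03 and 2.69 in alcohol, and 2.59 and 2.82 in co-treated cells, below control in all 4 alcohol-exposed libraries. Its log2 fold change was -1.75 in alcohol (adjusted p = 0.0916) and -1.51 in co-treated cells against control (adjusted p = 0.0787), and its expected counts were not whole in any library.

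Regulators and other targets of the antioxidant response gave no call either. NFE2L2, the gene of NRF2, was at 20.4 and 21.5 FPKM in control, 19.4 and 24.2 in alcohol, and 21.8 and 23.9 in co-treated cells, and its inhibitor KEAP1 at 17.3 and 19.0, 21.6 and 21.1, and 20.6 and 16.3 FPKM. NQO1 was at 1.58 to 3.17 FPKM and TXNRD1 at 24.1 to 30.3 FPKM over all libraries, with overlapping control and co-treated libraries for NQO1. In co-treated cells against control the log2 fold change was 0.08 for NFE2L2 (adjusted p = 0.858), -0.02 for KEAP1 (adjusted p = 0.971), 0.13 for NQO1 (adjusted p = 0.933) and -0.11 for TXNRD1 (adjusted p = 0.760). FTL, the ferritin light chain, was at 284.7 and 277.1 FPKM in control, 351.2 and 362.7 in alcohol, and 356.6 and 347.9 in co-treated cells, above control in all 4 alcohol-exposed libraries, with a log2 fold change of 0.31 (adjusted p = 0.325) and 0.28 (adjusted p = 0.318). MAFK, a small MAF partner of NRF2, was at 26.4 and 26.7, 27.0 and 21.0, and 20.5 and 15.5 FPKM, lowest in co-treated cells, with a log2 fold change of -0.61 against control (adjusted p = 0.129). HMOX1, at most 9 counts in any library, was not tested. It had 2 and 2 counts in control, 6 and 9 in alcohol, and 5 and 8 in co-treated cells. These lay above control in all 4 alcohol-exposed libraries, but at low counts. Of 18 genes tested, 0 passed in any comparison by edgeR or DESeq2. Over all genes, edgeR called 0.0670%, 0.362% and 0.0134% in alcohol against control, co-treated against control and co-treated against alcohol, and DESeq2 0.335%, 0.797% and 0.0335%. So few calls mean that no call says little about this list. An unadjusted p under 0.05 was found for 1, 2 and 1 of the 18, beside 11.0%, 12.6% and 5.55% of all genes. The medians were 0.09 and -0.06 against control in alcohol and co-treated cells.

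**Figure D4:**
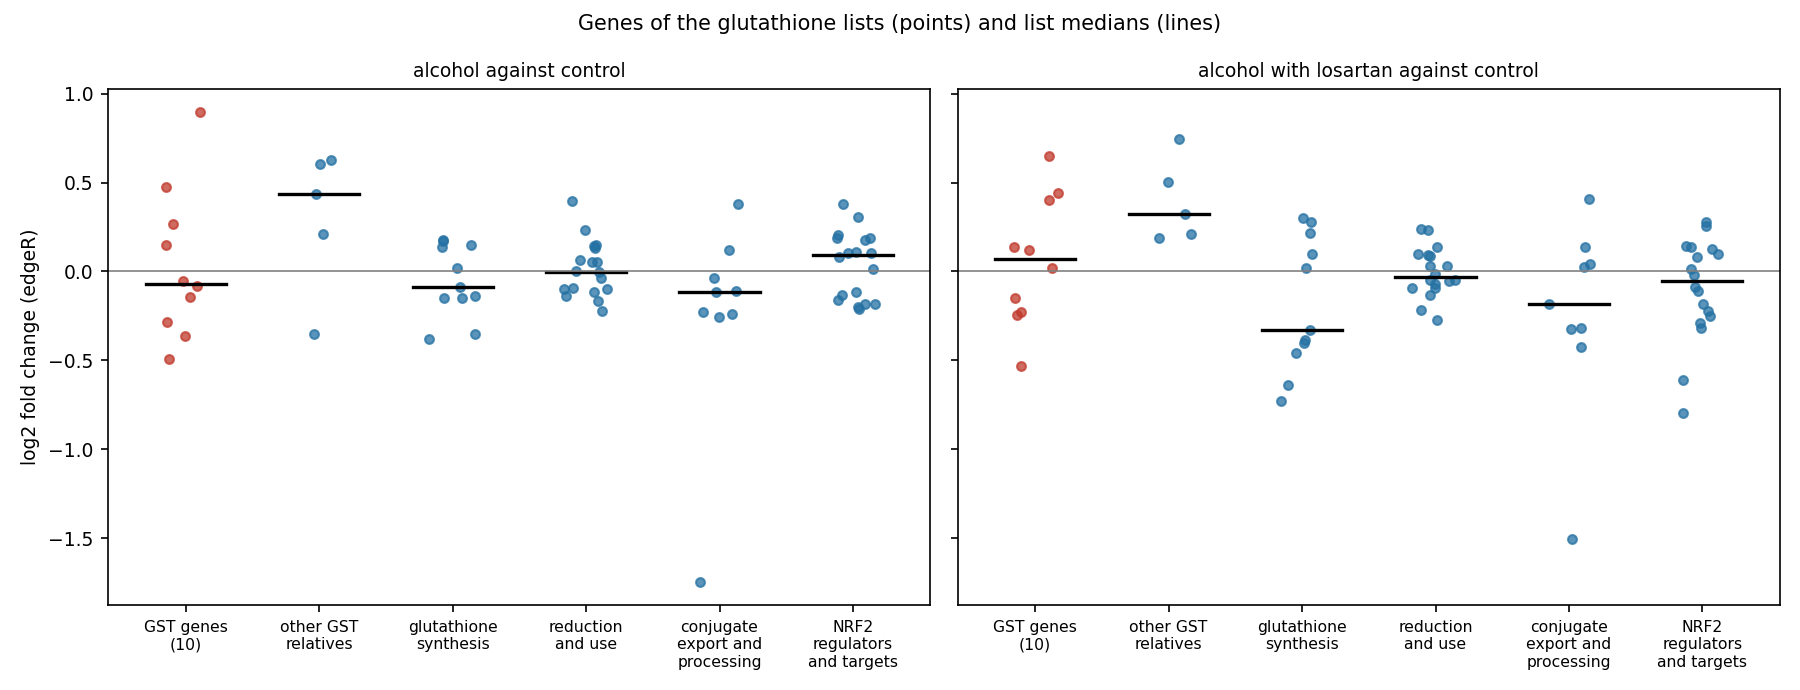
Log2 fold change by edgeR of every tested gene of the 10 members and of the 5 related lists (points) with the list median (line), for alcohol (left) and co-treated cells (right) against control. GSTM2 is the highest point of the members in both panels, and the lowest point of the export and processing list is ACY1, at -1.75 and -1.51.

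The genes whose pattern over the 6 libraries was nearest to that of GSTM2, by the root mean square distance of centred log2 CPM among 14925 genes, were SHISA2 (0.0715), PPP1R1A (0.0927), SSC4D (0.0943), PDE5A (0.0960) and LTBP2 (0.0996). PPP1R1A, an inhibitor of protein phosphatase, was at 48.2 and 51.0 FPKM in control, 82.8 and 115.1 in alcohol, and 84.7 and 91.7 in co-treated cells. The order of the group means was that of GSTM2, at nearly the same level. Unlike for GSTM2, the alcohol and co-treated libraries of PPP1R1A overlapped. The other 4 were at 7.20 FPKM or less in every library. Among the transferases GSTA4 was the nearest, at rank 113 (0.177), followed by GSTM1 at rank 165 (0.191), which shares transcript sequence with GSTM2, while GSTP1 and MGST1 were at ranks 12787 and 12980. The distances are descriptions over 6 shared libraries.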

How the data were processed

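RNA-seq of 6 libraries in 3 groups of 2 was used, grouped by the treatment in the sample titles. Per library, the authors deposited each gene's expected count, its FPKM and the length of its transcripts, and 1 table joins the FPKM of all libraries to gene symbols. The submitters' processing notes name HISAT2 2.0.4, Bowtie2 2.2.5, RSEM 1.2.12 and hg38, with no role given. Expected counts estimated by the authors are not whole for 33.9% of values above 0, and were rounded. Genes at 0 are left out of a library's file and were set to 0. The FPKM deposited by the authors was used for levels, since it is scaled to length.

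All 6 libraries entered 1 fit by edgeR's quasi-likelihood F test (two-sided, TMM, filterByExpr, Benjamini-Hochberg at 0.05 over 14926 genes). The SE is the log2 fold change over the root of F. R 4.3.3, edgeR 4.0.16, limma 3.58.1 and DESeq2 1.42.0 were used. A log2 CPM had a prior count of 2. The floor of 3 counts was 0.594 to 0.612 CPM per library. Floors and counts cover counting error only. Replicates differed beyond sampling noise (chi-square per degree of freedom 4.46 to 7.30), so each counts as a library of its own.

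The members and lists were chosen with earlier results of these data known. The genes named were the members, other transferases with at least 10 counts in a library, genes named for their role in each list, list genes past the threshold, and the 5 genes nearest to GSTM2. CBS, ACY1, ABCC5, SLC3A2, FTL and MAFK were named after their values were seen, and 1 gene of the rule is not reported here. GSTA3, GSTA5, DPEP2, DPEP3 and ACY3 are not in the table. No promoter window was at hand for MGST2.

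Alternatives were DESeq2, RLE size factors, no filter, a minimum of 10 counts throughout, a replicate block, a fit of only the 4 libraries compared, each library left out, limma on log2(FPKM + 1) and log2(FPKM + 0.1), CPM per kilobase in place of FPKM and, chosen after seeing the data, GSTM1 to GSTM5 summed. On simulated data for co-treated against control, the test recovered 57.6% to 77.0% of the 95 to 100 genes changed by 1 in log2 and 86.9% to 97.0% of the 96 to 100 changed by 2 over 10 draws, with 5 to 19 false calls among 14480 to 14515 unchanged genes.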

Additional observations from a re-analysis of the deposited data

How the results depend on the processing

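The count of members past the threshold in alcohol against control, 1 (GSTM2), was 0 with no expression filter, with only the 4 libraries compared, with limma on log2(FPKM + 1) or log2(FPKM + 0.1) and with GSTM1 to GSTM5 summed, where GSTM2 is no gene of its own. GSTM2 was chosen on this contrast, so these counts are no evidence of its stability. It was 0 to 1 with each library left out, and 0 without control replicate 2, alcohol replicate 2 or either co-treated replicate. The log2 fold change of GSTM2 there stayed between 0.76 (without alcohol replicate 2) and 1.03 (without alcohol replicate 1). In co-treated cells against control the count among the 9 members tested, GSTM2 left out, was 1 in place of 0 by DESeq2 (GSTP1). The count of list genes there was 1 in place of 0 by DESeq2, with at least 10 counts in every library and with the replicate block (CBS in each), 2 with only the 4 libraries compared (ACY1 and CBS), and 0 to 2 with each library left out (2 without alcohol replicate 1, 1 without alcohol replicate 2). With a library left out, signs turned for members near 0: MGST2 in co-treated cells against control (-0.10 to 0.13), and, against alcohol, GSTA4 (-0.16 to 0.10), MGST2 (-0.015 to 0.21), MGST3 (-0.14 to 0.23), GSTM4 (-0.093 to 0.034) and GSTK1 (-0.032 to 0.28). The cause was not tested.

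Over all genes tested, deviations from the group means of same-numbered libraries correlated at 0.114, -0.0162 and 0.0412 across the 3 pairs of groups. A correlation over all genes cannot show whether the replicate numbers paired the libraries for some of them. Replicate 2 of control and of alcohol held low MYL2 (863 and 821 FPKM) and high MYH6 (717 and 737 FPKM). Co-treated replicate 2 did not (2862 and 374 FPKM). What the replicate numbers stand for is not given in the sources used here. With the replicate block, genes called were 48 in alcohol against control, 136 in co-treated cells against control and 5 in co-treated cells against alcohol, in place of 10, 54 and 2, and by DESeq2 they were 50, 119 and 5. None of the 9 members tested passed with the block. Over all settings the genes called ran from 0 (limma on log2(FPKM + 1)) to 220 (without alcohol replicate 1) in alcohol against control, from 2 (limma on log2(FPKM + 1), and without co-treated replicate 2) to 184 (without alcohol replicate 1) in co-treated cells against control, and from 0 (at least 10 counts in every library) to 24 (without alcohol replicate 1) in co-treated cells against alcohol. Differences under 1 in log2, as those of the members are, were not simulated, and groups of 2 could not be searched for an outlying library.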
